A study of Mus musculus with 19 samples.

Results

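The genes described here belong to the early cleavage programme of the mouse embryo and lie outside the Zscan4 cluster: Tcstv1, Gm21761, AF067061, Usp17le, Usp17lc, Gm12794, Tmem92, Gm2016, Gm5662 and Gm8300. They are 10 of the 54352 gene symbols in each of the 2 count tables. They are listed as genes of the two-cell embryo and were chosen by having enough counts in 2D culture, so their 2D values are given below as a description, with no test. The rule names no minimum count. Tmem92 had the fewest 2D counts of the 10, with 18 in the PlaB libraries and 4 in the control libraries together, while Zfp352, a gene of the same stage that was not taken, had 10 and 16. Other genes of this stage outside the 10 had more, such as Gm5039 (133 and 250) and Gm20767 (63 and 37). Counts in 2D alone therefore do not separate the 10 from the rest. All 10 passed the filter on low counts in the fits of 2D, blastoid and all libraries; Tmem92 did not pass it in 2D when either PlaB library was left out.

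Polyadenylated RNA was sequenced with Smart-seq2, a full-length cDNA method without molecular identifiers, from the mouse embryonic stem cell line TT2, grown on inactivated fibroblast feeder cells, and from blastoids, stem cell aggregates that resemble the blastocyst. The 7 groups held 19 libraries. Among the 2D cultures, 2 libraries came from cells exposed for 6 h to 20 nM PlaB (pladienolide B, an inhibitor of the SF3B part of the spliceosome) and 2 from cells without it, all collected 54 h after seeding. Blastoids in 3D microwells gave 3 libraries on each of days 1, 2, 3, 4 and 5, and the labels list PlaB for 6 h for these too, so no blastoid group is without PlaB. Library totals were 2515381 to 2765115 counts after PlaB, 3909958 to 4118725 in control cells and 3684787 to 7607021 in blastoids. Whether replicates are separate cultures is not in the labels, and the p-values therefore measure spread between libraries that may be technical. No replicate pair agreed within counting error (lowest chi-square per degree of freedom 3.84).

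In the mouse, the embryonic genome is first switched on broadly at the two-cell stage, when a set of genes and MERVL retrotransposons is transcribed for a short time. A small, changing share of cells in embryonic stem cell cultures turns on many of the same genes, and these cells are called 2C-like. The transcription factor Dux activates much of this set, and many genes of the set belong to families of similar copies.

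The 10 genes fell into 5 kinds. Tcstv1, Gm21761 and AF067061 belong to the Tcstv family, some of which have been reported to lengthen telomeres in mouse stem cells. Usp17le and Usp17lc encode deubiquitinating enzymes of the Usp17-like family. Gm12794, named Pramel19 in RefSeq, belongs to the PRAME family, and Tmem92 encodes a predicted transmembrane protein. Gm2016, Gm5662 and Gm8300 resemble Eif1a, which encodes a translation initiation factor that acts in start codon selection, and are called Eif1a-like below.

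On GRCm38 (GENCODE M21) all 10 are protein-coding genes. The Tcstv genes lie on chromosome 13: Tcstv1 at chr13:119893388-119894785 on the minus strand, Gm21761 at chr13:119912095-119929272 on the minus strand and AF067061 at chr13:120263114-120264517 on the plus strand. The Usp17-like genes lie on chromosome 7, with Usp17le at chr7:104768049-104777470 (minus) and Usp17lc at chr7:103415072-103419880 (plus). Gm12794 lies at chr4:101940407-101943183 (plus) and Tmem92 at chr11:94777217-94782703 (minus). The Eif1a-like genes lie on chromosome 12: Gm8300 at chr12:87514316-87518266 (plus), Gm2016 at chr12:87874072-87877859 (plus) and Gm5662 at chr12:88270640-88274500 (minus). The annotated longest transcript has 1 exon for Tcstv1 and AF067061, 2 exons for Usp17lc and the 3 Eif1a-like genes, 3 for Gm21761, Usp17le and Gm12794, and 5 for Tmem92. The Eif1a-like transcripts are GC-poor, at 37.6% to 38.2% G and C, while the other 7 range from 45.5% to 51.15%.

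The coding sequences of the Eif1a-like members are close to identical, and those of the Tcstv members are similar. The coding sequences of Gm2016 and Gm5662 match at 99.1% of aligned positions, and each matches Gm8300 at 98.1%. Their identity to Eif1a itself is 94.7%, 94.2% and 95.1% for Gm2016, Gm5662 and Gm8300. Among the Tcstv genes, AF067061 and Gm21761 match at 97.5%, Tcstv1 and Gm21761 at 95.5%, and Tcstv1 and AF067061 at 95.3%. Usp17le and Usp17lc are further apart, at 82.7%, but Usp17lc matches the non-member Usp17ld at 98.4%. The share of a gene's 50-base windows that also occur in another annotated gene runs from 1.93% for Tmem92 to 81.3% for Gm2016, and 75.2% of all Gm2016 windows are found in Gm5662. Gm21761 shares 63.2% of its windows with Gm20767, a non-member on the same chromosome. Reads from such windows cannot be assigned to 1 copy with certainty, so values of single Eif1a-like, Tcstv and Usp17-like genes are uncertain, as are those of Gm12794, and sums over each family are given beside them.

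**Figure D1:**
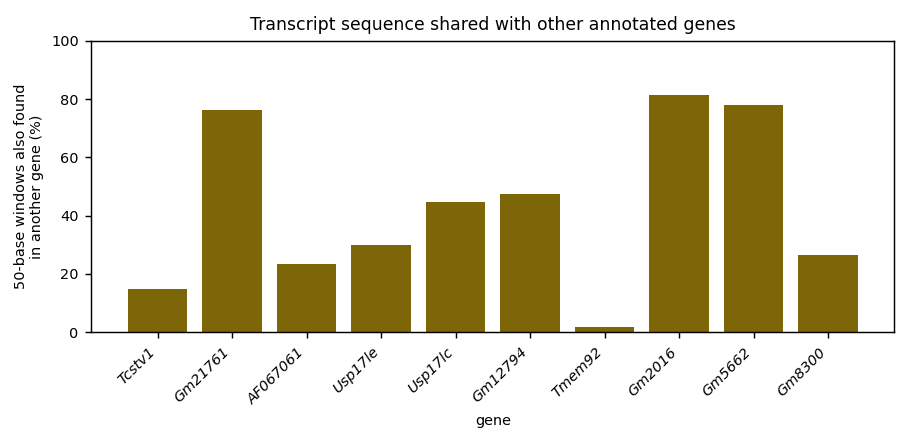
The bars give, for each of the 10 genes (horizontal axis), the percentage of its 50-base transcript windows that also occur in another annotated gene of GENCODE M21. Gm2016 (81.3%), Gm5662 (77.9%) and Gm21761 (76.2%) share most of their sequence, and Tmem92 (1.93%) shares almost none.

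RefSeq promoter sequence, the 250 bases before the RefSeq start, was at hand for 3 of the 10 genes, Gm21761, AF067061 and Usp17lc. The starts of Gm21761 and Usp17lc lie inside the longer gene spans of GENCODE, and 80 bases of the Gm21761 window fall in an exon of its longer transcript. The first 170 bases of each window, which lie before that exon, are shown. Both Tcstv genes lie on opposite strands of chromosome 13, and Usp17lc is shown as a gene of another family. All 3 genes were higher after PlaB in 2D culture, in the counts that the rule used, so that direction does not separate them. Capitals mark GATTCAAT, the core of the published mouse Dux binding motif. TATATAA, a sequence of the kind found in core promoters, was searched over the whole window as well. Both motifs were chosen after the sequences were seen. The build is GRCm38.p6, and the stretches shown are chr13:119913549-119913718 (minus) for Gm21761, chr13:120262845-120263014 (plus) for AF067061 and chr7:103416446-103416615 (plus) for Usp17lc.
Gm21761: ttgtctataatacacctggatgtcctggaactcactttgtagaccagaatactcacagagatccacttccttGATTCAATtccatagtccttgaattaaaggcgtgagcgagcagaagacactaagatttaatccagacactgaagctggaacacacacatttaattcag
AF067061: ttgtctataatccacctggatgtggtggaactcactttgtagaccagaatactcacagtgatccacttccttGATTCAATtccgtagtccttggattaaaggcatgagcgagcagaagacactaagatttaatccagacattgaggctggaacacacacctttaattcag
Usp17lc: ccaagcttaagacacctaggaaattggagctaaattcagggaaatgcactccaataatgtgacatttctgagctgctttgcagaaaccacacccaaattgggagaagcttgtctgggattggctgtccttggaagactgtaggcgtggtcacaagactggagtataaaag
Over 250 bases, the Gm21761 and AF067061 windows match at 92.4% of aligned positions (232 of 251). In both, TATATAA begins at -58 and GATTCAAT at -178 from the start, on the strand of the gene. Neither motif is in the Usp17lc window, which matches the other two at 53.7% and 53.2%. Over all 32851 RefSeq mouse promoters of the same length, searched on both strands, 3.04% hold TATATAA and 0.460% hold GATTCAAT; the motifs share no overlap in these windows. A match of letters is a description, and no binding was measured here.

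In 2D culture the direction differed by kind among the 10 genes, but genes of the same families outside the 10 did not all follow. Gm20767 (log2 fold change 1.43) and Gm12800 (1.16) rose, while Pramef25 (-2.34) fell and the Eif1a-like Gm2056 (0.63) showed no fall. The 3 Tcstv genes, the 2 Usp17-like genes, Gm12794 and Tmem92 were higher after PlaB, with log2 fold changes between 1.91 and 3.54, whereas Gm2016 and Gm5662 were lower and Gm8300 showed no clear difference. The PlaB and control libraries did not overlap for 7 genes that were higher and 2 that were lower; over all tested genes 37.7% were higher without overlap and 38.6% were lower. Because 2D counts chose the genes, nothing is read from these counts. Gm21761, AF067061, Usp17le, Usp17lc and Tmem92 had 4 to 9 counts over the control libraries and 18 to 46 over the PlaB libraries. Genes this low in control cells reach a count minimum mainly through the PlaB libraries. The choice itself therefore favoured the higher direction for them. Levels below are CPM (counts scaled to library size), TMM-scaled over all 19 libraries, and fold changes are PlaB over control with the standard error (SE) of the edgeR fit. In bulk RNA, fewer cells of a type and less RNA per cell cannot be told apart.

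Among the Tcstv genes, Gm21761 was at 12.96 and 6.32 CPM in the PlaB libraries, against 0.510 and 1.08 CPM in the control libraries, a log2 fold change of 3.54 ± 0.70. These rest on 30 and 16 counts after PlaB, against 2 and 4 counts in control cells. AF067061 had 12.96 and 4.35 CPM after PlaB, against 1.27 and 1.08 CPM in control cells (log2 fold change 2.82 ± 0.68). PlaB replicate 1 was the higher of the pair for both genes, and without it the log2 fold change was 2.94 for Gm21761 and 1.84 for AF067061. Tcstv1, the most abundant of the 3 per kilobase of transcript, was at 26.4 and 13.4 CPM after PlaB, against 4.08 and 5.40 CPM in control cells (log2 fold change 2.06 ± 0.41). The 6 Tcstv-family rows summed to 86.4 and 40.7 CPM after PlaB, against 13.5 and 14.3 CPM in control cells (log2 fold change 2.18 ± 0.29). The 2 groups did not overlap for any of the 3 genes or for the sum, as for 37.7% of all tested genes in this direction.

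The deubiquitinase genes were at lower levels per kilobase of transcript than the Tcstv genes after PlaB. Usp17le had 5.18 and 6.32 CPM after PlaB, against 1.27 and 0.810 CPM in control cells, a log2 fold change of 2.41 ± 0.71 on 12 and 16 counts after PlaB, against 5 and 3 in control cells. Usp17lc had 5.18 and 3.95 CPM after PlaB, against 1.53 and 0.810 CPM in control cells (log2 fold change 1.91 ± 0.73). The family sum over 5 rows was 21.2 and 13.8 CPM after PlaB, against 5.10 and 5.13 CPM in control cells (log2 fold change 1.76 ± 0.40). Low counts left wide errors for both single genes.

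Gm12794, the PRAME-family gene, had the highest 2D level of the 7 genes that were higher after PlaB, per kilobase as well as in CPM. It was at 36.3 and 43.9 CPM after PlaB, against 5.86 and 8.10 CPM in control cells (log2 fold change 2.52 ± 0.30). With Gm12800 and B020004J07Rik, which share sequence with it, the sum was 49.3 and 51.0 CPM after PlaB, against 11.0 and 11.9 CPM in control cells (log2 fold change 2.13 ± 0.26). Tmem92, which shares little sequence with any gene, had 3.46 and 3.95 CPM after PlaB, against 1.02 and 0 CPM in control cells. Its log2 fold change of 2.73 ± 0.92 rests on 8 and 10 counts after PlaB, against 4 and 0 counts in control cells; without the control library at 0 it was 1.78. The PlaB libraries were close to each other for both genes.

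The Eif1a-like genes went the other way or showed no clear difference. Gm2016 was at 5.18 and 3.56 CPM after PlaB, against 28.5 and 25.1 CPM in control cells, a log2 fold change of -2.62 ± 0.37. Gm5662 was at 26.4 and 18.2 CPM after PlaB, against 52.5 and 44.0 CPM in control cells (log2 fold change -1.12 ± 0.24). Gm8300 was at 19.9 and 18.2 CPM after PlaB, against 26.3 and 15.1 CPM in control cells (log2 fold change -0.13 ± 0.30). For Gm8300 both PlaB libraries lay between the control libraries. Gm2016 and Gm5662 share 75.2% and 72.1% of their windows with each other, and how shared reads were assigned between them was not tested. All 17 Eif1a-like rows summed to 132 and 116 CPM after PlaB, against 241 and 217 CPM in control cells (log2 fold change -0.89 ± 0.15). Eif1a itself, at 375 ± 14.3 CPM after PlaB and 875 ± 15.6 CPM in control cells (mean ± SD, n = 2 each), fell by 1.23 ± 0.13 on the log2 scale (adjusted p = 3.09e-10, edgeR quasi-likelihood test with Benjamini-Hochberg adjustment over all tested genes).

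Fold changes were also computed with the trend of each library with GC content removed. In that fit the log2 fold change was -1.97 for Gm2016, -0.48 for Gm5662 and 0.52 for Gm8300, and lay between 1.84 and 3.58 for the other 7 genes. The order of the Eif1a-like genes stayed Gm2016 lowest and Gm8300 highest.

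**Figure D2:**
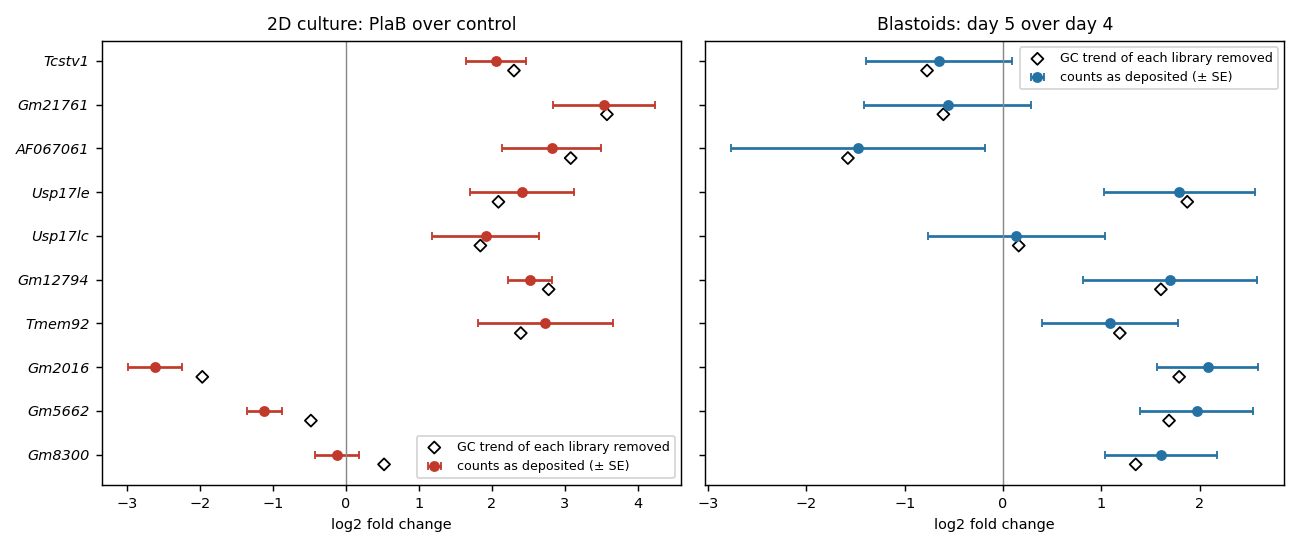
Filled points give the log2 fold change of each of the 10 genes with its SE, for PlaB over control in 2D culture (left) and day 5 over day 4 in blastoids (right); open diamonds give it with the GC trend of each library removed. In 2D culture 7 genes lie between 1.91 and 3.54 and Gm2016 lies at -2.62, whereas in blastoids the Eif1a-like genes lie between 1.61 and 2.08.

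Other cell markers and library properties differed between the 2D groups as well. The summed level of 20 feeder fibroblast markers was 7635 to 9388 CPM after PlaB and 4745 to 5738 CPM in control cells, with S100a4 at 0 in control cells, and 14 of the 18 tested rose (edgeR, adjusted p under 0.05). The 12 stem cell markers summed to 15441 to 15687 CPM after PlaB and 21352 to 23383 CPM in control cells, none of them at 0; 2 of the 12 rose and 5 fell, with a median log2 fold change of -0.09 (edgeR, adjusted p under 0.05). Mitochondrially encoded genes took 9.14% and 9.38% of counts after PlaB, against 5.74% and 6.18% in control cells. The part of these differences in the values of the 10 genes was not tested. The 9 Zscan4 rows summed to 234 and 177 CPM after PlaB, against 147 and 133 CPM in control cells.

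Among blastoid libraries the spread between replicates was uneven, and several libraries stood apart. Day 1 replicate 2 was the lowest of its day for 9 of the 10 genes, with a summed level of 20.0 CPM, against 93.9 and 159 CPM in the other day 1 libraries. The same library had 7.29 CPM over the 9 Zscan4 rows, against 95.5 and 328 CPM, and 142 CPM over 10 primitive endoderm markers, against 53.1 and 32.2 CPM. Day 1 replicate 3 was the highest for 8 of the 10, and day 2 replicate 3 was the lowest of its day for 9 of the 10, with 69.9 CPM in sum, against 229 and 191 CPM. Day 3 replicate 3 differed most from its replicates over all genes: the chi-square divided by its degrees of freedom was 75.7 and 55.3, the highest of all replicate pairs. It had 13.5% mitochondrial counts, against 5.50% and 4.71% in the other day 3 libraries, and 8051 CPM over the 12 stem cell markers, against 20616 and 14797 CPM. It was the highest of its day for 6 of the 10 genes.

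**Figure D3:**
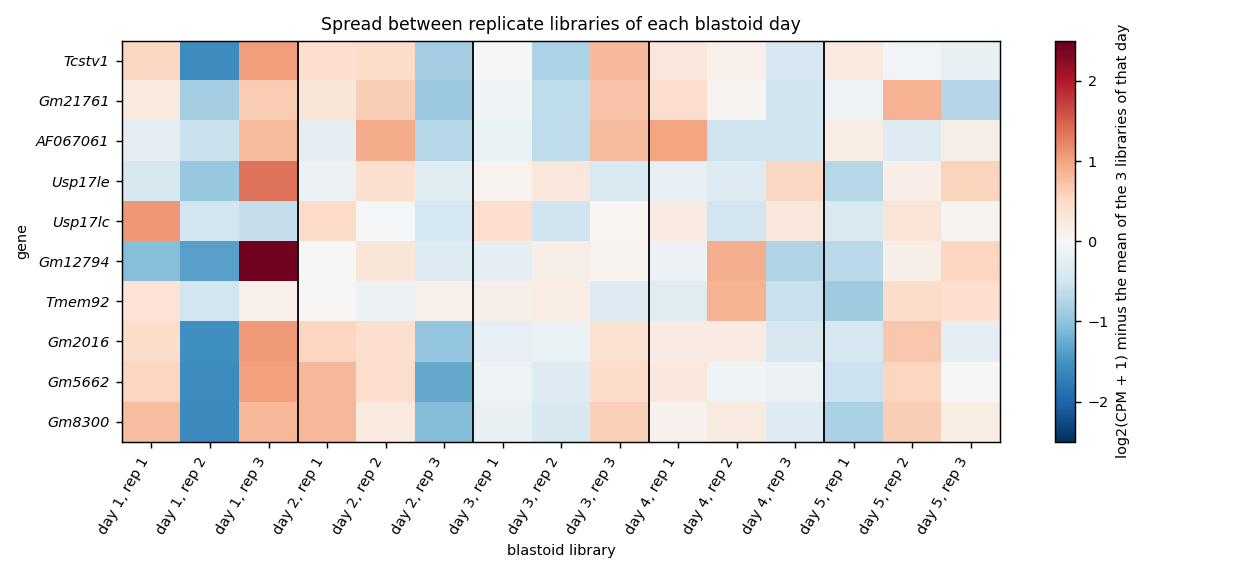
Colours give log2(CPM + 1) of each gene (rows) in each blastoid library (columns) minus the mean of the 3 libraries of that day. Day 1 replicate 2 is below its day's mean for every gene, and day 2 replicate 3 for all but Tmem92.

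In blastoids, whose counts the rule did not use, 4 of the 10 genes changed over the 5 days: Usp17le (adjusted p = 0.00208), Gm2016 (0.00650), Gm5662 (0.0279) and Gm8300 (0.0337; edgeR quasi-likelihood test of any difference among days, Benjamini-Hochberg adjustment over all 15121 tested genes). Over all tested genes 68.0% passed that test, against 4 of the 10. The calls for Gm5662 and Gm8300 ended when single libraries were left out (in 8 and in 9 of 15 such fits), while those for Usp17le and Gm2016 passed in all 15. Counts of Usp17le were low, with 14 over the day 4 libraries together. The Gm8300 call also ended with a replicate block (adjusted p = 0.0516), total-count scaling (0.0618) and no filter on low counts (0.186), and the Gm5662 call with no filter (0.233, edgeR). Without day 3 replicate 3, the adjusted p was 0.0844 for Gm5662 and 0.0823 for Gm8300 (edgeR). Gains also came from single libraries: Gm12794 passed without day 1 replicate 3 (adjusted p = 0.000359, edgeR), and Tcstv1 without day 1 replicate 2 (0.0130), day 2 replicate 3 (0.0340) or day 3 replicate 3 (0.0355), among others.

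The 3 Eif1a-like genes were the ones with a called step between neighbouring days, and all 3 were higher on day 5 than on day 4. Gm2016 was at 35.5, 76.6 and 40.4 CPM on day 5, against 14.0, 14.0 and 8.84 CPM on day 4 (2.08 ± 0.51 on the log2 fold scale, adjusted p = 0.00619, edgeR). Gm5662 was at 51.5, 110.3 and 76.2 CPM on day 5, against 24.7, 18.9 and 18.5 CPM on day 4 (1.97 ± 0.58, adjusted p = 0.0191, edgeR). Gm8300 was at 16.6, 46.3 and 33.7 CPM on day 5, against 11.5, 12.6 and 8.27 CPM on day 4 (1.61 ± 0.57, adjusted p = 0.0447, edgeR). Replicate 2 was the highest on day 5 for each of them, and these 3 genes may share reads. Across all tested genes 14.1% rose and 14.5% fell between these days, against 3 and 0 of the 10; 4 had an unadjusted p under 0.05, and DESeq2 also called 0 lower. The median log2 fold change of the 10 genes was 1.35, with 7 positive, and that of all tested genes -0.02.

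Of these calls, that of Gm2016 passed in all 15 fits that left out 1 library and in the 7 other settings. Gm5662 lost its call without day 4 replicate 2 (adjusted p = 0.0576), day 4 replicate 3 (0.0706) or day 5 replicate 2 (0.0751) and with no filter on low counts (0.156). Gm8300 lost its call in 9 of the 15 fits, among them without day 5 replicate 2 (log2 fold change 1.23, adjusted p = 0.166, edgeR), and in 4 other settings. The sum over the 17 Eif1a-like rows was 196, 436 and 323 CPM on day 5, against 117, 102 and 77.3 CPM on day 4 (log2 fold change 1.73 ± 0.60, adjusted p = 0.0442, edgeR). Trophectoderm markers, 12 genes with none at 0, summed to 1138 to 2129 CPM on day 5 and to 936 to 1037 CPM on day 4, and 4 of the 10 tested rose. Of primitive endoderm markers 2 of 7 tested fell, of feeder markers 2 of 18, and of stem cell markers 2 of 12 rose and 4 fell (edgeR, adjusted p under 0.05); their part in these changes was not tested.

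Among the other 7 genes none passed between day 5 and day 4, and they did not share a direction. Usp17le was at 0.830, 2.35 and 3.41 CPM on day 5, against 0.387, 0.269 and 1.28 CPM on day 4 (log2 fold change 1.79 ± 0.77, adjusted p = 0.0854, edgeR). Gm12794 was at 5.81, 11.0 and 14.8 CPM on day 5, against 2.45, 6.18 and 1.28 CPM on day 4 (1.70 ± 0.89, adjusted p = 0.170, edgeR). Single libraries of both genes overlapped between these days, and each passed when day 1 replicate 3 was left out of the fit (adjusted p = 0.0467 for Usp17le and 0.00925 for Gm12794, edgeR). Tmem92 had a log2 fold change of 1.08 ± 0.69, which was 2.43 without day 4 replicate 2 (adjusted p = 0.0325, edgeR), and Usp17le passed without day 4 replicate 3 (2.68, adjusted p = 0.0468, edgeR). Usp17lc had a log2 fold change of 0.14 ± 0.90. The Tcstv genes had negative values, -0.65 ± 0.74 for Tcstv1, -0.56 ± 0.85 for Gm21761 and -1.47 ± 1.29 for AF067061, which had 2, 0 and 2 counts on day 5 and whose value was positive without day 4 replicate 1.

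Earlier steps gave no call among the 10 with edgeR or DESeq2. On day 2 against day 1 the log2 fold change was positive for 9 of 10 genes, all but Usp17le, with a median of 0.89, against 0.03 over all tested genes; 3 had an unadjusted p under 0.05 and 0 passed (edgeR), where 1.69% of all tested genes rose and 5.27% fell. On day 3 against day 2 it was negative for all 10, with a median of -1.17, and 2 had an unadjusted p under 0.05 while 0 passed (edgeR), where 12.0% of all tested genes rose and 13.5% fell. On day 4 against day 3 the median was -0.45, 1 gene (Tmem92) was positive and none had an unadjusted p under 0.05 (edgeR), where 15.6% of all tested genes rose and 12.3% fell; the Eif1a-like values were positive with the GC trend removed. Summed over 5 Usp17-like rows, the fall on day 3 against day 2 passed, at 5.94, 4.36 and 3.77 CPM on day 3, against 18.9, 21.6 and 10.7 CPM on day 2 (log2 fold change -1.83 ± 0.46, adjusted p = 0.00729, edgeR). With the GC trend removed, the 3 Eif1a-like genes passed at this step, at -1.54 for Gm2016, -1.74 for Gm5662 and -1.74 for Gm8300 (adjusted p = 0.0240, 0.0327 and 0.0324, edgeR). For the single Usp17-like genes it was -1.46 ± 0.68 for Usp17le and -1.86 ± 0.80 for Usp17lc (adjusted p = 0.119 and 0.0907, edgeR).

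Between the ends of the series, day 5 against day 1, Gm2016 rose and Usp17le fell. Across all tested genes 25.5% rose and 25.5% fell, against 1 and 1 of the 10. Gm2016 was at 35.5, 76.6 and 40.4 CPM on day 5, against 19.003, 4.00 and 29.3 CPM on day 1 (log2 fold change 1.58 ± 0.50, adjusted p = 0.0145, edgeR). That call ended without day 5 replicate 2 (adjusted p = 0.0817), for the sum of Eif1a-like rows (0.0812) and with the GC trend removed (0.0528). Usp17le was at 0.830, 2.35 and 3.41 CPM on day 5, against 3.55, 2.12 and 14.3 CPM on day 1 (log2 fold change -1.55 ± 0.64, adjusted p = 0.0492, edgeR). The libraries of these days overlapped, and without day 1 replicate 3 the log2 fold change was -0.37 (adjusted p = 0.648, edgeR), and the call ended in 7 of 15 fits that left out 1 library. Among these were the fits without day 5 replicate 1 (adjusted p = 0.192) and day 5 replicate 2 (0.0923), and it ended also with DESeq2 (0.0676), with the GC trend removed (0.0658) and with a replicate block (0.0621). The Usp17-like sum was 2.91, 6.53 and 7.77 CPM on day 5, against 13.4, 4.70 and 25.8 CPM on day 1, and fell by 1.31 ± 0.46 on the log2 scale (adjusted p = 0.0224, edgeR) with overlap between the days. Gm8300 and Gm5662 had log2 fold changes of 1.36 ± 0.56 and 1.17 ± 0.56, with adjusted p-values of 0.0552 and 0.0935 (edgeR). Cell type markers differed between these days too: 14 of 18 tested feeder markers fell (median log2 fold change -2.73), 5 of 7 primitive endoderm markers fell (median -2.46) and 7 of 10 trophectoderm markers rose (median 1.92; edgeR, adjusted p under 0.05). Their part in the values of the 10 genes was not tested.

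**Figure D4:**
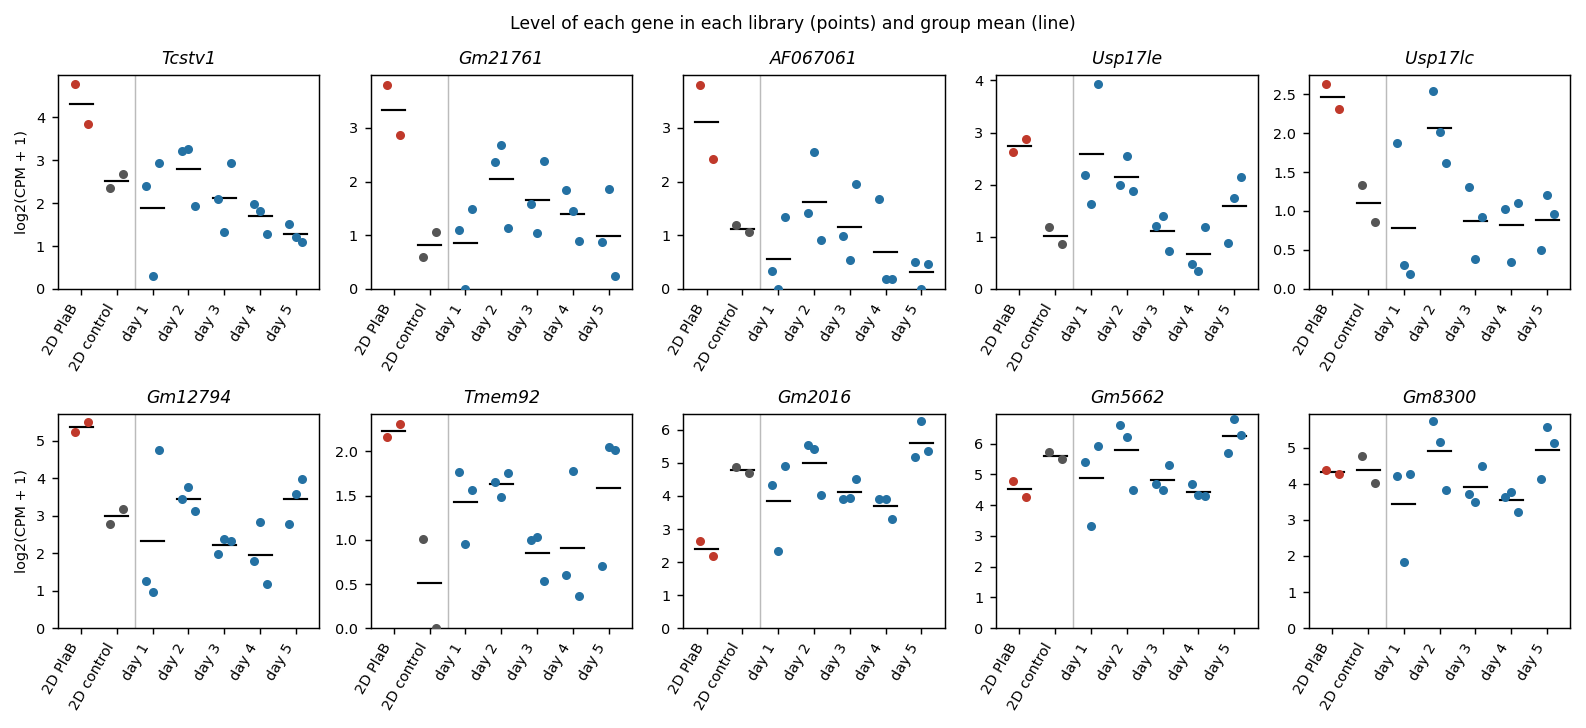
Each point is the level of a gene in 1 library as log2(CPM + 1), by group, and the line is the mean of these log values; red marks PlaB in 2D culture, grey the 2D control and blue the blastoid days. Gm2016 and Gm5662 are highest on day 5, whereas Gm12794, Tcstv1, Gm21761, AF067061, Usp17lc and Tmem92 are highest after PlaB in 2D culture.

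Day 1 replicate 3 set the mean of Gm12794 on that day. Gm12794 had 11, 4 and 185 counts in the day 1 libraries, or 1.39, 0.940 and 25.7 CPM, a mean of 9.33 ± 14.1 CPM (SD, n = 3). Without replicate 3 its log2 fold change was 3.04 for day 2 against day 1 (adjusted p = 0.00331, edgeR) and 3.11 for day 5 against day 1 (adjusted p = 0.000391, edgeR), while with it these were 0.09 ± 0.82 and 0.20 ± 0.83. Usp17lc showed another library high on that day, with 21, 1 and 1 counts in replicates 1, 2 and 3; without replicate 1 its rise on day 2 against day 1 passed (log2 fold change 4.07, adjusted p = 0.0270, edgeR). Tcstv1 passed on day 5 against day 1 without day 1 replicate 2 (log2 fold change -1.90, adjusted p = 0.0165, edgeR), while with it the value was -1.37 ± 0.72 (adjusted p = 0.120). Gm5662 and Gm8300 passed on day 5 against day 1 without day 1 replicate 3 (1.63 and 1.61, adjusted p = 0.0305 and 0.0479, edgeR). Without day 2 replicate 3, Gm5662 passed on day 3 against day 2 (-1.60, adjusted p = 0.0392, edgeR). The same step passed for Gm12794 without day 1 replicate 3 (adjusted p = 0.0268), and for Gm5662 and Gm8300 without day 1 replicate 2 (0.0354 and 0.0441, edgeR).

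Set against PlaB-treated 2D cells, blastoid levels differed by gene kind, as a description only, since culture form cannot be told apart from count table and 2D counts chose the genes. For the Tcstv genes the log2 fold change of day 1 over 2D PlaB was -2.33 ± 0.62 for Tcstv1, -3.14 ± 0.79 for Gm21761 and -3.69 ± 1.00 for AF067061. On day 5 it was -3.77 ± 0.71, -3.06 ± 0.83 and -4.82 ± 1.15 for the same genes in that order. Gm12794 was at -2.06 ± 0.88 on day 1 and -1.92 ± 0.89 on day 5, Usp17lc at -2.04 ± 0.82 and -2.36 ± 0.87, and Tmem92 at -1.02 ± 0.78 and -0.72 ± 0.79. The fitted values of these genes were lower in blastoids on both days, by the least for Tmem92. Usp17le was at 0.23 ± 0.66 on day 1 and -1.37 ± 0.71 on day 5. The Eif1a-like genes were higher on day 5, at 3.53 ± 0.71 for Gm2016, 1.83 ± 0.67 for Gm5662 and 0.75 ± 0.65 for Gm8300, and at 2.03 ± 0.71, 0.74 ± 0.66 and -0.53 ± 0.65 on day 1. Feeder markers summed to 778 to 1232 CPM on day 1 and to 480 to 539 CPM on day 5, against 7635 to 9388 CPM after PlaB in 2D culture; Tagln and S100a4 were at 0 in blastoids. The part of this difference in these values was not tested.

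Ordered over all 7 groups, PlaB-treated 2D cells had the highest mean of Tcstv1, Gm21761, AF067061, Usp17lc, Gm12794 and Tmem92. The rule used the 2D counts, so this place in the order is a description. Usp17le was highest on day 1 (6.65 ± 6.65 CPM, SD, n = 3), ahead of 2D PlaB (5.75 ± 0.804 CPM, n = 2). Gm2016 (50.8 ± 22.4 CPM) and Gm5662 (79.3 ± 29.5 CPM) were highest on day 5, and Gm8300 on day 2 (33.4 ± 19.6 CPM, n = 3 each). Day 2 was second or first for 7 of the genes, all but Usp17le, Gm12794 and Tmem92. Most neighbours in these orders did not differ beyond their spread: of 6 neighbouring pairs of groups per gene, 2 were apart by more than the sum of their SDs for Gm12794, 1 for Tcstv1, Usp17le, Usp17lc and Gm2016, and 0 for the rest. The ratio of the highest to the lowest group mean ran from 3.09 for Gm8300 to 32.7 for AF067061. Per kilobase of transcript, and averaged over the 7 groups, Gm5662 was at 23.3 CPM, Gm2016 at 13.2, Gm8300 at 10.9, Gm12794 at 8.26 and Tcstv1 at 4.74, while Usp17lc was the lowest at 0.752.

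For the 3 most abundant of the 10, the genes with the most similar pattern over the 19 libraries were sought among 9737 others by Pearson's r of log2(CPM + 1), as a description. Gm8300 was closest to Gm5039 (r = 0.940), Zscan4f (0.886) and Gm4027 (0.882), and Gm5662 to Gm4027 (0.869), Gm5039 (0.860) and Gm8332 (0.834). All of these but Zscan4f share 50-base windows with the gene in question and may share reads. Gm2016 was closest to genes that share none, Kmt2c (0.839), a histone methyltransferase gene, Kif18a (0.837), which encodes a kinesin, and Zfp229 (0.836). These libraries differ in culture form, day, depth and base composition together.

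Other genes listed for the two-cell stage rose and fell in 2D culture in shares close to those of all tested genes. Of 55 listed, Zscan4 rows included, 51 were in the tables and 26 were tested in 2D culture, where 7 rose and 6 fell after PlaB (edgeR, adjusted p under 0.05; 25.9% and 25.8% over all tested genes), with a median log2 fold change of 0.06, against 0.00 over all tested genes. Of the 7 that rose, 4 are Zscan4 rows (Zscan4f, Zscan4e, Zscan4-ps1 and Zscan4-ps2) and the others are Gm20767, Gm12800 and Gm4971, all 7 named after their values were seen. Some listed genes, such as Eif1a (mean 725 CPM over the 7 groups) and Eif1 (479 CPM), were abundant in every group. Such genes do not mark the two-cell stage alone. Those that fell include Eif1a, given above, and Dppa2, a regulator of early embryonic genes, at -0.80 ± 0.15 (adjusted p = 3.64e-05, edgeR). Pramef25 (-2.34), BB287469 (-1.87) and Gm21319 (-1.41) fell too (adjusted p = 0.0161, 0.0264 and 0.0271, edgeR), and were named after their values were seen. The zinc finger gene Zfp809 was at -0.64 ± 0.23 (adjusted p = 0.0204, edgeR), while Eif1 (0.15 ± 0.13), Dppa4 (-0.13 ± 0.15) and Gm5039 (-0.26 ± 0.24) did not pass. Duxf3, the gene of the Dux factor, had 0 counts in the 2D libraries, which at this depth does not show that it was absent. Gm20767, the gene that shares most windows with Gm21761, rose by 1.43 ± 0.45 on the log2 scale (adjusted p = 0.00753, edgeR).

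In blastoids 39 of these genes were tested. On day 5 against day 4, 6 rose and 2 fell (14.1% and 14.5% over all tested genes), with a median of 0.78. Gm5039, an Eif1a-like gene, rose by 1.74 ± 0.57 (adjusted p = 0.0313, edgeR), whereas Dppa4 fell by 1.14 ± 0.24 (adjusted p = 0.00185, edgeR) and Dppa2 fell by 0.89 ± 0.25 (adjusted p = 0.0104, edgeR) on the log2 scale. Among the other listed Eif1a-like genes, which share sequence with the members, Gm2035 (2.08), Gm2022 (1.77) and BB287469 (2.21) passed (adjusted p = 0.00677, 0.0211 and 0.0225, edgeR). Gm4027 (1.72), Gm2056 (0.92) and Gm21319 (0.77) did not (adjusted p = 0.0549, 0.275 and 0.460, edgeR). Outside this family, Zscan4f (2.17) and Pramel7 (4.50) rose as well (adjusted p = 0.0493 and 0.0242, edgeR). Pramel7 had 6 counts over the day 5 libraries and 0 on day 4. These genes were chosen after their values were seen. Eif1a itself was at 937 ± 207 CPM on day 5 and 695 ± 43.6 CPM on day 4 (mean ± SD, n = 3 each; log2 fold change 0.46 ± 0.25, adjusted p = 0.172, edgeR). On day 5 against day 1, 4 rose and 5 fell (25.5% each over all tested genes). On day 3 against day 2, 5 of the 39 fell (13.5% over all tested genes) and the others did not pass, with a median of -1.42.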

How the data were processed

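Raw counts per gene symbol, deposited by the authors in 1 table for 2D culture and 1 for blastoids, were used. Reads were aligned to mm10 with STAR 2.7.10b and counted with HTSeq 0.13.5, per the submitters' processing notes. The annotation release was not given in the sources used here, nor was the strand setting. Reads of overlapping or antisense genes therefore cannot be told apart. Libraries were grouped by their labels. Of 54352 symbols, 53669 matched 1 gene of GENCODE M21 (GRCm38), which gave positions, lengths and GC content.

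Genes were kept by filterByExpr (minimum count 10, minimum total 15) and fitted with edgeR 4.0.16 (TMM scaling, quasi-likelihood test) in R 4.3.3: 11183 genes in 4 2D libraries, 15121 in 15 blastoid libraries and 16304 in all 19. Adjusted p-values are Benjamini-Hochberg over all tested genes, with a threshold of 0.05. The biological coefficient of variation was 0.127, 0.258 and 0.25. CPM values come from the joint scaling. Promoter sequences are from RefSeq (GRCm38.p6), and transcript and coding sequences are from GENCODE M21. Python 3.11.15 was used for both. Fits were tested on simulated data.

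The genes and lists were chosen with earlier results of these data known. All 10 members are named. For the other lists, up to 6 genes with the highest mean CPM were planned, and further genes were named for their values, shared sequence or role. Alternatives were RLE size factors, total-count scaling, no filter, DESeq2 1.42.0, a replicate block, removal of each library's GC trend, family sums and leaving out each library. Intervals and errors do not separate PCR copies from molecules.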

Additional observations from a re-analysis of the deposited data

How the results depend on the processing

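In 2D culture the number of positive and negative log2 fold changes among the 10 genes did not move beyond 1.5 times under any alternative run; Tmem92 was not tested without either PlaB library. Gm8300 after PlaB was at 0.52 with the GC trend removed and from -0.51 to 0.30 when 1 library was left out. For day 1 against 2D PlaB, Usp17le was at -0.23 and Gm8300 at 0.13 as family sums, and Usp17le ran from -0.99 to 0.62 when 1 library was left out.

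Counts of called blastoid genes moved more. With the GC trend removed, 3 genes fell on day 3 against day 2, and 0 rose and 0 fell on day 5 against day 1. DESeq2 gave 2 higher and 0 lower on day 5 against day 1. With no filter on low counts, 2 fell on day 5 against day 1, and 1 rose on day 5 against day 4. Leaving out 1 library gave 2 to 7 genes changed over the 5 days, 0 to 1 higher on day 2 against day 1, 0 to 2 lower on day 3 against day 2, 1 to 5 higher on day 5 against day 4, and 0 to 4 higher with 0 to 2 lower on day 5 against day 1. Among blastoid steps with no call, signs changed as well when 1 library was left out: Usp17le on day 2 against day 1 ran from -1.33 to 0.29, AF067061 from -1.76 to 0.15 on day 3 against day 2 and from -3.16 to 0.22 on day 4 against day 3. Where no single library or setting was given above, the cause was not tested.

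Replicate numbers showed no clear pairing of the libraries. For this, log2(CPM + 1) minus the mean of the library's own group was correlated between groups, over genes with a mean of at least 5 CPM. These deviations, not the levels, correlated from -0.39 to 0.30 between same-numbered blastoid libraries (median -0.087, over 0.1 in 7 of 30 pairs). Of 15 blastoid libraries, 3 correlated best with their own number. In 2D culture, same and different numbers gave -0.033 and 0.033, which mirror each other by construction with 2 libraries per group. Removing the group mean ties same and different numbers in blastoids as well, so these values cannot show that pairing is absent. With a replicate block, Gm8300 lost its call over the 5 days (adjusted p = 0.0516, edgeR), 0 genes fell on day 5 against day 1, and Gm8300 on day 5 against day 4 had an adjusted p of 0.0600 (edgeR). Depth limits the low genes: Tmem92, Usp17lc, AF067061, Usp17le and Gm21761 rest on fewer than 10 counts in several libraries, where a difference would not be detectable unless large. The blastoid calls for Usp17le rest partly on such counts, with 3, 2 and 9 on day 4 and 4, 9 and 18 on day 5.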
